A study of Mus musculus with 4 samples.

Results

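The p53 target genes described here are Cdkn1a, Mdm2, Zmat3, Sesn2, Ccng1, Bax, Bbc3, Trp53inp1, Perp and Phlda3, a set of 10 classical transcriptional targets of p53, the protein encoded by Trp53 in the mouse. They were found on the array as the 15 probes that carry one of these names, of 41174 probes that are not controls, and all 10 genes were among the 14875 genes bright enough to be tested. The tissue was the posterior part of mouse embryos of 5 to 6 somites, cut at the last somite boundary. Cdx2+/-Cdx4-/- embryos, heterozygous for the caudal homeobox gene Cdx2 and homozygous mutant for its relative Cdx4, were set against wildtype embryos. Tissue of 10 embryos was pooled for each genotype, so the spread between single embryos was not measured. Both RNAs were hybridised together, in different dyes, to each of 4 arrays, labelled as 2 replicates with a dye swap each, and called here array 1 (replicate 1), array 2 (its dye swap), array 3 (replicate 2) and array 4 (its dye swap).

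p53 is a transcription factor that is kept scarce in unstressed cells, because Mdm2, itself a target, marks it for destruction. DNA damage and other stresses release it, and it then switches on genes that stop the cell cycle, trigger apoptosis, repair DNA or change metabolism. Early mouse embryos are known to be sensitive to its activation, and embryos without Mdm2 survive only if Trp53 is removed as well. Because it acts through a doubled recognition sequence near its targets, those sequences are shown first.

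The 250 bases before each RefSeq transcription start (GRCm38.p6) were searched for the p53 half-site consensus, a 10-base motif that reads the same on both strands, and for 2 half-sites side by side with at most 1 mismatch in their 20 bases. Windows were at hand for 7 of the 10 genes, and Zmat3, Trp53inp1 and Perp are named only. The pair of half-sites was found before a start of 25 of 27025 genes, 0.0925% of them, and 2 of those 25 were members, Cdkn1a and Ccng1. These 2 windows are shown because Cdkn1a and Ccng1 had the largest positive and the largest negative ratio of the set; each runs 5′ to 3′, with the pair in capitals.
Cdkn1a, chr17:29090729-29090978, plus strand, before its upstream start: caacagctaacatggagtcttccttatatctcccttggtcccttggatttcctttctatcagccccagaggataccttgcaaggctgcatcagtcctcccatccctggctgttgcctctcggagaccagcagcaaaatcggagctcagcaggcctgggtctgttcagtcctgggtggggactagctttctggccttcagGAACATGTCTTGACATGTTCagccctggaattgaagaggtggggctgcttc
Ccng1, chr11:40755287-40755536, minus strand: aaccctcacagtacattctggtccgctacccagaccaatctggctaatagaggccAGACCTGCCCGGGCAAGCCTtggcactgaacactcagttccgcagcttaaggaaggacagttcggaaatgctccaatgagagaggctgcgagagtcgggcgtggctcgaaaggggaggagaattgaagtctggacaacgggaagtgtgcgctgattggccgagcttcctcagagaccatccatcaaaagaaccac
The Cdkn1a pair began 51 bases before the start and the Ccng1 pair 195 bases before it, and each had 1 mismatch to the consensus. At least 1 exact half-site was found in windows of Bax, Ccng1, Cdkn1a and Mdm2, against 8.20% of all genes; in Ccng1 it is part of the pair, and Cdkn1a had 1 within the pair and 1 outside it. A match is a description of letters and says nothing of binding in this tissue. Of the 5 other genes with such a pair that were tested, 0 were called higher and 0 lower in limma, also at an unadjusted p under 0.05, and their log2 ratios ran from -0.14 to -0.014.

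The direction of the ratios is not settled by the labels. Cdx4, the deleted gene, had lower signal in the channel labelled mutant on arrays 1 and 4, and in the channel labelled wildtype on arrays 2 and 3. Arrays with the same labelled dye orientation correlated negatively over all probes, at r = -0.36 (arrays 1 and 3) and r = -0.38 (arrays 2 and 4). The arrays were therefore turned so that the Cdx4 ratio was negative on each, giving aligned log2 ratios of -2.59, -2.11, -2.82 and -2.42 on arrays 1 to 4. Cdx2, which was not used for the turning, was also negative on 4 of 4 arrays, with a log2 ratio of -0.54 ± 0.097 (moderated SE, n = 2, adjusted p = 0.00198 in limma). By the labels of arrays 2 and 3 every sign given below turns, so that higher and lower change places. With each array signed by its own labels, 0 of the 10 members were called higher, where the background was 0.0138%, and 0 lower, where it was 0.152%. At an unadjusted p under 0.05 limma had 0 higher and 3 lower. The share over all genes at that unadjusted threshold is not given here, so these counts cannot be set against a background. Whether the Cdx4 probe lies in the deleted part of the gene was not stated.

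Ratios are log2 of mutant over wildtype after alignment, and standard errors and adjusted p-values come from limma with the arrays averaged within each labelled replicate number (n = 2) and Benjamini-Hochberg adjustment over 21860 probes. A gene is said to have risen or fallen only where its adjusted p was below 0.05 in that fit. A second fit averaged arrays 1 with 3 and arrays 2 with 4, in which dye bias cancels within each pair; it is called the exchange pairing. Its standard error was 0.052 for all probes, and its adjusted p is too small if the labelled replicate numbers are right. As aligned, the mutant RNA was in the same dye on arrays 1 and 2 and in the other dye on arrays 3 and 4. Dye bias therefore does not cancel within a labelled replicate. In the labelled-number fit it adds to the spread, and the adjusted p of that fit may be too large where such bias is present. Nothing in the labels states that each replicate was its own pool of embryos, and the p-values may therefore reflect technical spread alone.

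The p53 target genes did not share one direction. Ccng1 alone fell, and Cdkn1a and Phlda3 had positive ratios on every array while Zmat3, Perp and Ccng1 had negative ones on every array. In the labelled-number fit, 0 of the 10 genes were called higher, where the background over all genes was 2.90%, and 1 was called lower, where it was 3.89%. At an unadjusted p under 0.05 there were 1 higher, Cdkn1a, and 2 lower, Ccng1 and Zmat3, where the shares over all genes were 9.66% and 9.87%. In the exchange pairing 2 of 10 were called higher, against a background of 21.6%, and 5 lower, against 18.7%. Ratios of the same sign on all 4 arrays were found for 2 positive members, with a background of 24.8%, and for 3 negative ones, with a background of 19.6%. Except for the lower calls of the exchange pairing, which held 5 of 10 members, these counts lie near the background. The median log2 ratio of the 10 was -0.12, against 0.015 over all genes tested, and the median absolute ratio was 0.18 against 0.096. By sign, 2 of the 10 were above 0 and 8 below, where 54.6% of all genes were above 0. The median of the members was -0.098, 0.023, -0.11 and -0.23 on arrays 1 to 4, so it was below 0 on 3 arrays and above on array 2. Over all genes tested the median was 0.0077, 0.045, -0.017 and 0.0012 on arrays 1 to 4. The median of the members was thus the lower one on each array, array 2 included.

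**Figure D1:**
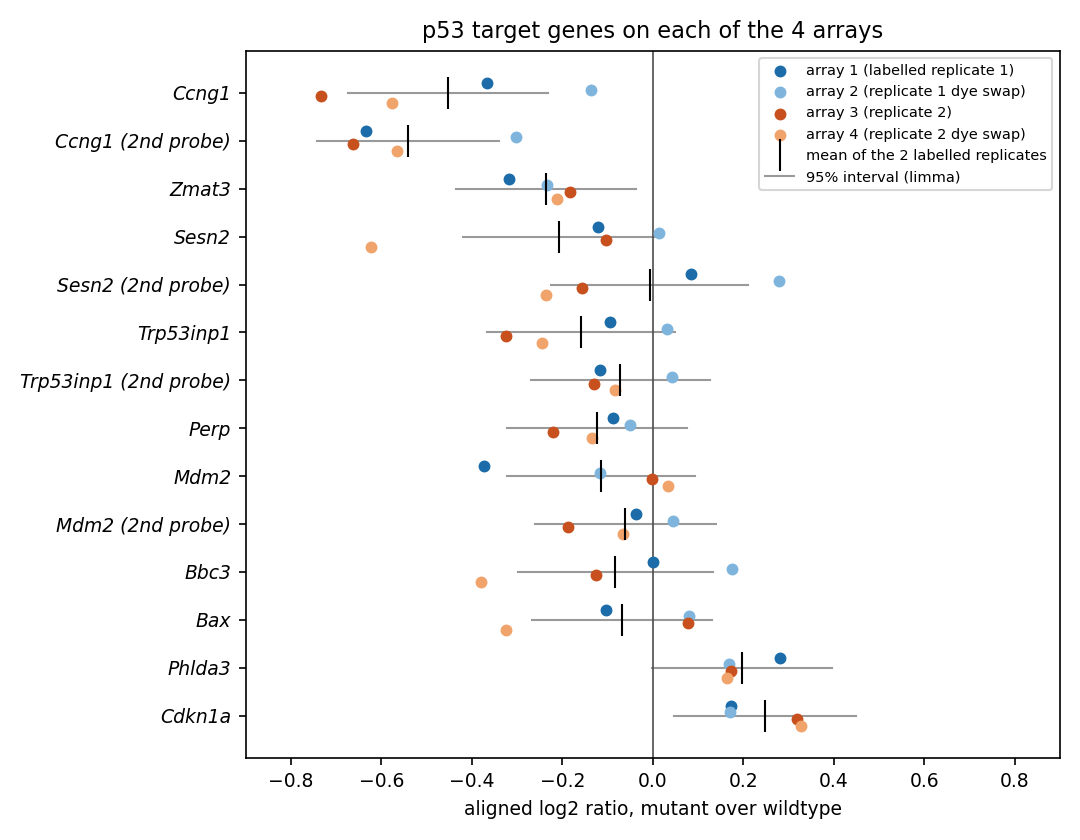
Aligned log2 ratios of mutant over wildtype (x axis) of the 14 tested probes of the p53 target genes (y axis). Points are the 4 arrays, black ticks the means of the 2 labelled replicates and grey lines limma's 95% intervals; both Ccng1 probes lie below 0 on every array, and Cdkn1a and Phlda3 lie above 0 on every array.

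Mdm2 is the feedback inhibitor of the set. This gene, which encodes the ubiquitin ligase that holds p53 down and is itself induced by p53, was read by a pair of probes on chromosome 10, at 117092215 to 117092274 and at 117095662 to 117095721 (minus strand, mm8). The brighter one had ratios of -0.37, -0.12, -0.0021 and 0.033 on arrays 1 to 4. The other, printed in 10 spots, had -0.038, 0.046, -0.19 and -0.065. Neither probe kept one sign, and the lowest array was array 1 by the brighter probe and array 3 by the other. The log2 ratios were -0.11 ± 0.099 (95% interval -0.32 to 0.093, adjusted p = 0.643) and -0.061 ± 0.095 (-0.26 to 0.14, adjusted p = 0.845) in limma. A change of Mdm2 was not detectable with these arrays, and the interval of the brighter probe reaches down to -0.32.

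Of the cell cycle members, Cdkn1a encodes p21, which inhibits cyclin-dependent kinases and is the main arrest gene downstream of p53. Its probe on chromosome 17 (28828096 to 28828155, plus strand, mm8) had normalised intensities of 391.2, 580.6, 375.9 and 396.5 scanner units in the mutant channel of arrays 1 to 4, and 346.7, 515.4, 301.0 and 315.8 in the wildtype channel. The mutant channel was the brighter one on 4 of 4 arrays. The ratios were 0.17, 0.17, 0.32 and 0.33, a mean 1.19-fold higher signal in the mutant (log2 0.25 ± 0.096, interval 0.046 to 0.45, adjusted p = 0.168 in limma). That is above 93.8% of genes tested and did not pass, while the exchange pairing called it (adjusted p = 1.63e-05). The probe is printed in 10 spots per array, and the spread over spots within an array was small, with an SD from 0.043 to 0.062. All of its spots used, 9 on array 3 and 10 on each other array, had positive ratios. The labelled replicates were at 0.17 and 0.32, and since the mutant RNA, as aligned, was in a different dye in each, a dye effect and a difference between replicates cannot be told apart in that gap.

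Ccng1 encodes cyclin G1, an atypical cyclin that is strongly induced by p53 and feeds back on Mdm2 by recruiting a phosphatase. It was the member with the largest ratio. Its brighter probe (chromosome 11, 40594334 to 40594393, minus strand, mm8) had intensities of 642.5, 974.2, 583.5 and 635.3 in the mutant channel, and 827.8, 1070.3, 970.5 and 947.7 in the wildtype channel. The mutant channel was dimmer on every array, by least on array 2. Ratios were -0.37, -0.14, -0.73 and -0.58, a mean 1.37-fold lower signal (log2 -0.45 ± 0.11, adjusted p = 0.0145 in limma), which only 1.63% of genes tested lay below. The second Ccng1 probe, at 40592348 to 40592407, had ratios of -0.63, -0.30, -0.66 and -0.57 and a mean of -0.54 ± 0.096 (adjusted p = 0.00192). Ccng1 thus fell by both of its probes, and array 2 gave the smallest size by both. The call of the brighter probe ended without array 1 (log2 -0.40, adjusted p = 0.244) and without array 3 (-0.41, adjusted p = 0.0624). It also ended with only arrays 2 and 3 (-0.43, adjusted p = 0.0723), and held with only arrays 1 and 4 (-0.47, adjusted p = 0.0405). In posterior tissue as a whole, fewer cells of a type and less RNA per cell cannot be told apart.

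**Figure D2:**
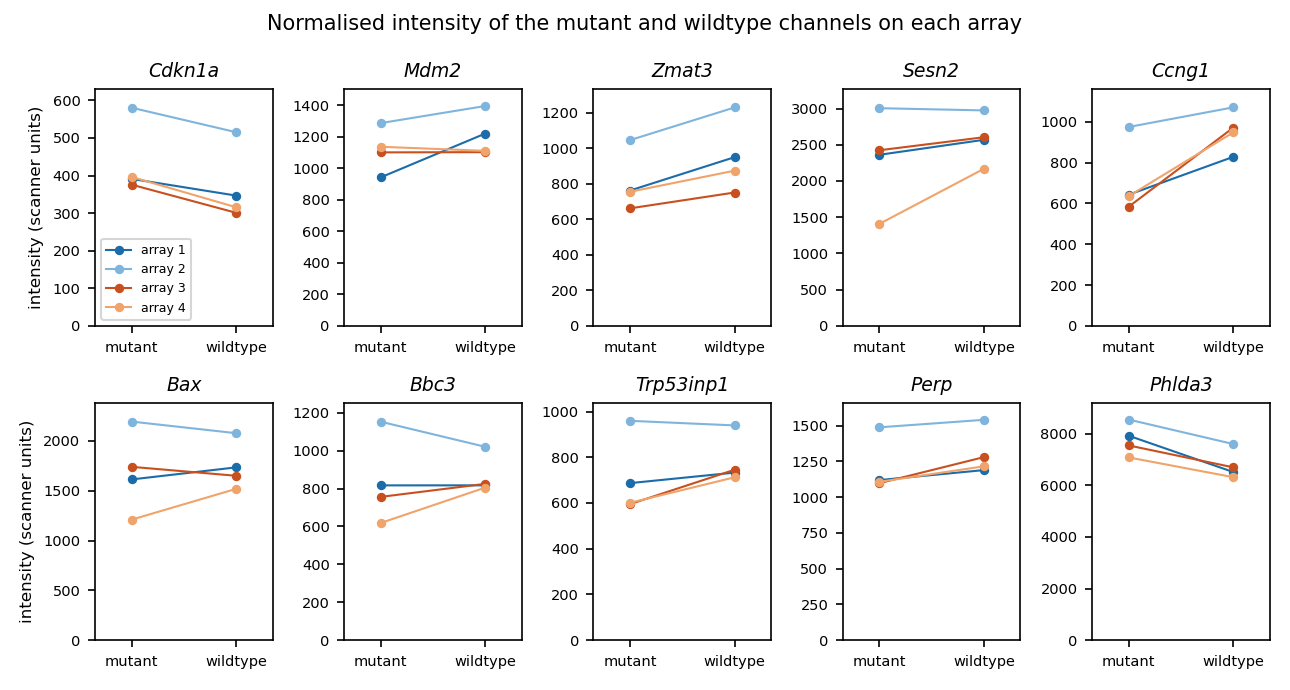
Normalised intensity in scanner units (y axis, from 0) of the mutant and wildtype channels (x axis) for the brightest tested probe of each p53 target gene, with 1 line per array. Ccng1 and Zmat3 lines rise toward wildtype on 4 of 4 arrays and Cdkn1a and Phlda3 lines fall; arrays are not scaled to one another.

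Of the members, 5 act in apoptosis or survival signalling. Bax, the BCL2 family protein that permeabilises mitochondria, was read by 1 probe printed in 10 spots (chromosome 7, 45334141 to 45334296, mm8), whose coordinates span 156 bases against 60 for every other member probe. Its ratios were -0.10, 0.080, 0.078 and -0.32. It was above 0 on 2 arrays and below on 2, with an SD over spots of 0.037 to 0.070 within an array, so the arrays differed by more than their spots. Its log2 ratio was -0.068 ± 0.095 (adjusted p = 0.819 in limma). Arrays 1 and 4 alone gave -0.21 and arrays 2 and 3 alone 0.079, which turns the sign.

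Bbc3 encodes PUMA, a BH3-only protein that frees BAX to act. Its probe (chromosome 7, 15476576 to 15476635, plus strand) had ratios of -0.00049, 0.18, -0.13 and -0.38. The spread over arrays, with an SD of 0.23, exceeded the mean ratio of -0.083 ± 0.10 (adjusted p = 0.783 in limma). As for Bax, array 4 was the lowest and array 2 the highest of the 4.

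Trp53inp1, a stress-induced nuclear protein that promotes p53 activity and autophagy, was read at 11101174 to 11101233 and at 11098180 to 11098239 of chromosome 4 (plus strand, mm8). The brighter probe had ratios of -0.094, 0.031, -0.33 and -0.25, and the other -0.12, 0.043, -0.13 and -0.083. Both were below 0 on all arrays except array 2. Their log2 ratios were -0.16 ± 0.099 (adjusted p = 0.456) and -0.072 ± 0.094 (adjusted p = 0.801) in limma, and the exchange pairing called the brighter one alone (adjusted p = 0.00846).

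Perp, a tetraspan membrane protein of desmosomes that is both a p53 and a p63 target, had ratios of -0.087, -0.050, -0.22 and -0.13 at 18546307 to 18546366 of chromosome 10 (plus strand). All 4 were below 0 and small. The log2 ratio was -0.12 ± 0.095 (adjusted p = 0.585 in limma), with an adjusted p = 0.0474 in the exchange pairing.

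Phlda3 encodes a pleckstrin homology protein that blocks AKT at the membrane. Its probe (chromosome 1, 137585476 to 137585535, plus strand) had intensities of 7915.9, 8541.8, 7539.8 and 7075.7 in the mutant channel and 6511.2, 7594.5, 6692.3 and 6310.7 in the wildtype channel. The mutant channel was brighter on every array. Ratios were 0.28, 0.17, 0.17 and 0.17, a mean of 0.20 ± 0.094 (interval -0.0010 to 0.40, adjusted p = 0.290 in limma, and 0.000786 in the exchange pairing).

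Zmat3 encodes a zinc finger RNA-binding protein and Sesn2 a sestrin, which restrains mTORC1 signalling under stress. Zmat3 had ratios of -0.32, -0.23, -0.18 and -0.21 at 32526458 to 32526517 of chromosome 3 (minus strand). It was the most even of the negative members, with an SD over arrays of 0.058 and a mean of -0.24 ± 0.095 (adjusted p = 0.184 in limma, and 4.21e-05 in the exchange pairing). Another Zmat3 probe, at 32554426 to 32554485, was well above background on 0 of 4 arrays in the mutant channel and on 1 of 4 in the wildtype channel, so it was not tested. Sesn2 was read at 131764135 to 131764194 and at 131765019 to 131765078 of chromosome 4 (minus strand). The brighter probe had ratios of -0.12, 0.015, -0.10 and -0.62 and the other 0.084, 0.28, -0.16 and -0.24. Array 4 was the lowest by both, and the mean of the brighter one, -0.21 ± 0.10 (adjusted p = 0.299 in limma), rests on it. Without array 4 it was -0.078. The second Sesn2 probe was at -0.0072 ± 0.10 (adjusted p = 0.990), so the 2 probes of Sesn2 differed in size.

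**Figure D3:**
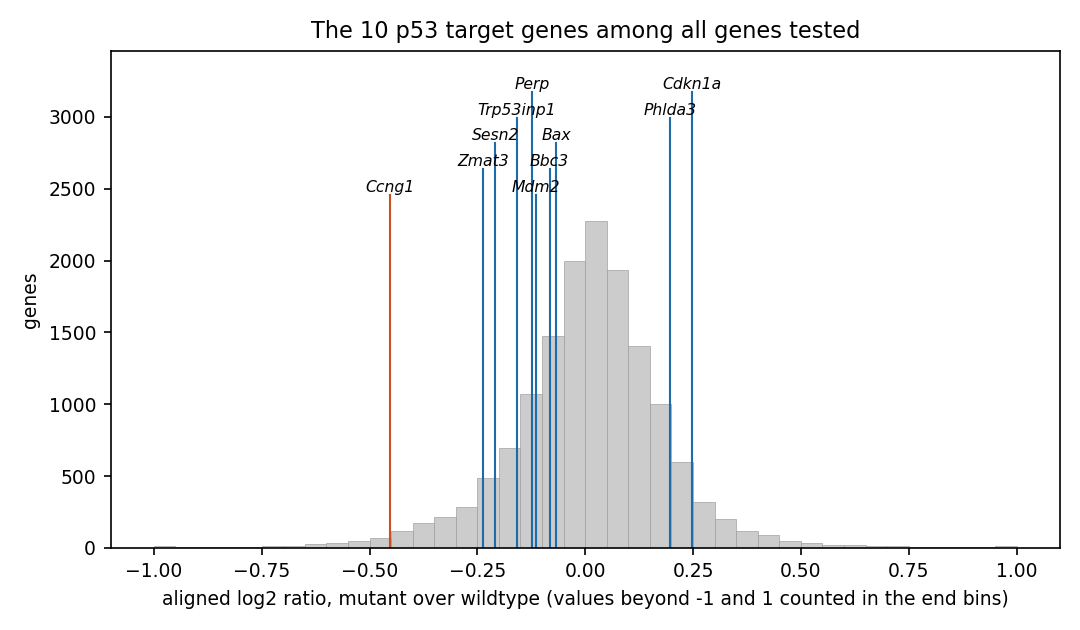
Number of genes tested (y axis) by aligned log2 ratio of mutant over wildtype (x axis, values beyond -1 and 1 in the end bins), with the 10 p53 target genes marked; Ccng1, in orange, is the 1 member called in the labelled-number fit. Phlda3 and Cdkn1a lie right of 0, and the other 8 members lie left of it.

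The position of 0 depends on how dye and brightness were balanced. With median centring of each array in place of loess, the median over all genes tested moved to 0.28 and 9 of the 10 members were above 0, Ccng1 being at -0.17. Relative to that median, Ccng1 was at -0.45, Zmat3 at -0.21 and Trp53inp1 at -0.16, while Phlda3 was at 0.42, Cdkn1a at 0.12 and Bax at 0.030. Mdm2, Sesn2, Bbc3 and Perp lay between -0.076 and -0.061. Set against all genes, 9 of the 10 thus kept their side, and Bax changed it. Under median centring limma called 0 of 14875 genes in the labelled-number fit, with 259 higher and 7 lower at an unadjusted p under 0.05.

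The other genes of the pathway were read from a list of 80, of which 79 were on the array and 69 were tested. Of these, 1 was called higher and 3 lower, close to the background of 2.90% and 3.89%. Their median log2 ratio was -0.0037, against 0.015 over all genes, with 33 above 0 and 36 below. Trp53 itself had ratios of 0.12, 0.26, -0.032 and 0.069 on arrays 1 to 4 by its brighter probe and 0.23, 0.12, -0.14 and -0.16 by the other, both higher in replicate 1 than in replicate 2. The means were at 0.10 ± 0.096 (adjusted p = 0.679) and 0.012 ± 0.10 (adjusted p = 0.981) in limma. As for Cdkn1a, a dye effect and a difference between the labelled replicates of Trp53 cannot be told apart. Mdm4, the relative of Mdm2 that masks p53's activation domain, was at -0.033 ± 0.094 (adjusted p = 0.928 in limma) by its brightest probe. By group, limma called 0 of 14 regulators and family members, with 1 higher and 2 lower at an unadjusted p under 0.05. Of 19 apoptosis genes tested, 0 were called, with 2 higher and 0 lower at an unadjusted p under 0.05; 14 had a positive ratio, against 54.6% of all genes, and their median was 0.064. The exchange pairing called 7 of the 19 higher and 2 lower, against a background of 21.6% and 18.7%. DNA repair genes had 0 of 5 called, also at an unadjusted p under 0.05, cell cycle genes 1 higher and 1 lower of 9, metabolism genes 1 lower of 7 and the remaining targets 1 lower of 15.

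Gadd45a, a growth arrest and DNA damage gene that binds PCNA and p21, rose, with ratios of 0.44, 0.62, 0.49 and 0.49. Its mean was 0.51 ± 0.094, a 1.42-fold higher signal in the mutant (adjusted p = 0.00277 in limma). Bcl6, a transcriptional repressor, fell, with -0.43, -0.24, -0.83 and -0.52 and a mean of -0.51 ± 0.10 (adjusted p = 0.00557). Cdkn1c, an imprinted inhibitor of cyclin-dependent kinases and a relative of p21, was counted with the cell cycle targets of the list. It fell as well, with -0.43, -0.42, -0.53 and -0.49 and a mean of -0.47 ± 0.095 (adjusted p = 0.00557). Gls2, a mitochondrial glutaminase, fell least, at -0.34 ± 0.097 (adjusted p = 0.0461). Without array 1, 0 genes of the list were called lower in limma, where 76 of all 14874 genes were, against 578 with all 4 arrays. At an unadjusted p under 0.05, 4 of the list were lower without array 1, and the share over all genes is not given here. The next largest positive ratios of one sign were those of Trp53i11 (0.22 ± 0.094, adjusted p = 0.211) and Siva1 (0.22 ± 0.10, adjusted p = 0.260).

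**Figure D4:**
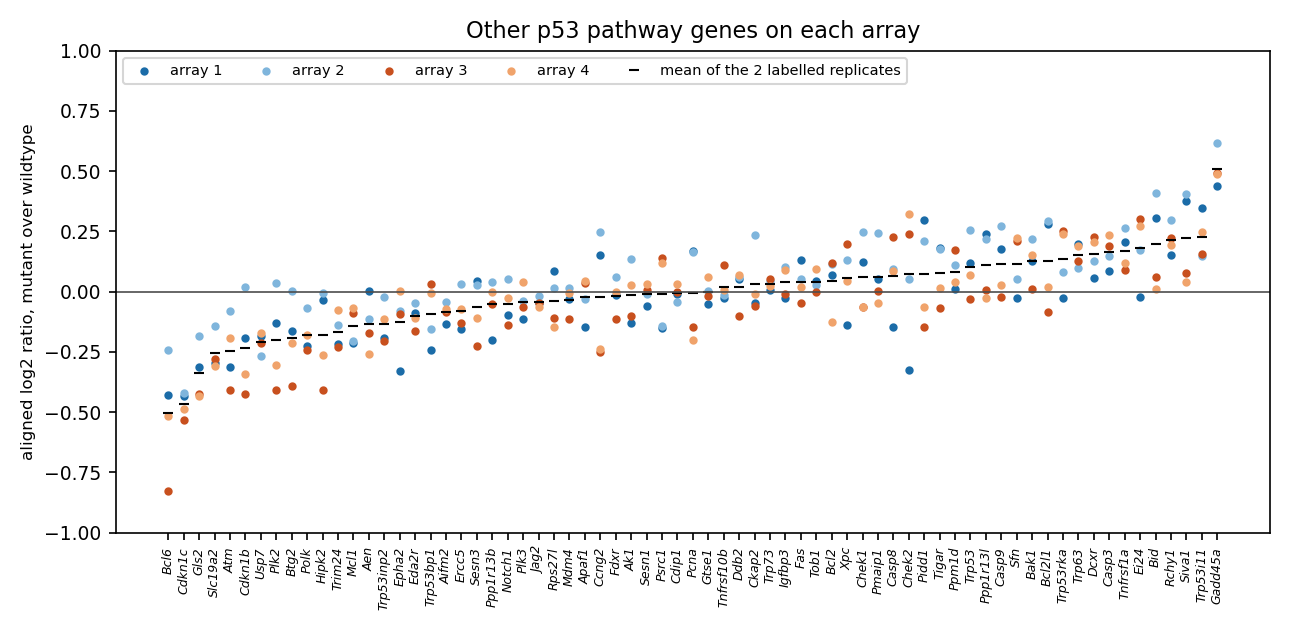
Aligned log2 ratios of mutant over wildtype (y axis) of the 69 tested genes of the wider p53 list (x axis, ordered by their mean), with 1 point per array and a dash for the mean of the 2 labelled replicates. The values centre near 0, and Bcl6, Cdkn1c and Gls2 at the left and Gadd45a at the right are the genes called.

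Markers of other cell populations differed between the same samples. For comparison, 2.90% of all genes tested were called higher and 3.89% lower. All 10 posterior markers were tested, with 1 called higher (Wnt3a, log2 0.34 ± 0.094, adjusted p = 0.0371 in limma) and 1 called lower (Cyp26a1, -0.65 ± 0.096, adjusted p = 0.000408). Of the anterior markers, Lhx2 (0.021) and Nkx2-5 (0.010) were bright enough to be tested and were not called, while Otx2, Six3 and Hesx1 were not bright enough. Visceral endoderm markers were called lower in 12 of 13 genes, with a summed intensity of 33047 to 42509 in the mutant channels and 70414 to 101291 in the wildtype channels. Endothelial markers were called lower in 4 of 12 and higher in 0, with sums of 9977 to 14137 in the mutant and 13573 to 18266 in the wildtype. Of these sums, Kdr gave 1433 to 2153 in the mutant and 2868 to 3708 in the wildtype. Etv2 gave 2675 to 3399 and 4167 to 5661. By sign, 10 of the 12 were below 0 and 2 above. Emcn was positive on 4 of 4 arrays (0.26 ± 0.094, adjusted p = 0.132 in limma) and Sox17 was at 0.039. Pecam1, Tek and Tie1 lay between -0.051 and -0.041, with mixed signs over the arrays. Primitive erythroid markers were called higher in 3 of 5 tested, the globins Hbb-bh1, Hba-x and Hbb-y. The sums were 5556 to 8119 in the mutant and 3113 to 4329 in the wildtype. Most of the mutant sum was Hbb-bh1, at 3544 to 5266 in the mutant and 1435 to 1832 in the wildtype. Hba-a1 was negative on 4 of 4 arrays (-0.28 ± 0.099, adjusted p = 0.119 in limma), and Alas2 was at 0.0035. Gata1 and Klf1 were not bright enough to be tested. By their brightest probes, immediate early and stress genes had 0 called of 11, with 1 higher and 4 lower at an unadjusted p under 0.05. Over all genes these shares were 9.66% and 9.87%. Dimmer probes of Junb (-0.46, adjusted p = 0.0219 in limma) and Hspa1a (-0.44, adjusted p = 0.0155) were called lower, each negative on 4 of 4 arrays. Those of Ier2 and Gadd45b were not called. Cell cycle genes had 0 called higher and 1 lower of 10. The part of these populations in the ratios of Ccng1 and the other members was not tested.

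**Figure D5:**
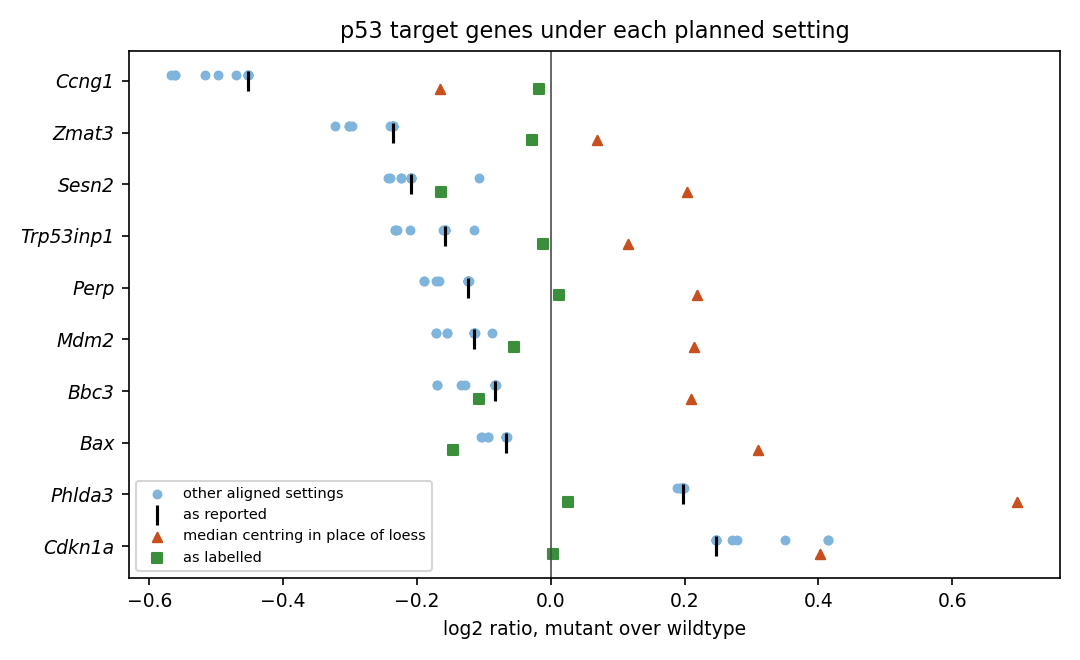
Log2 ratios of mutant over wildtype (x axis) of the p53 target genes (y axis) as reported, under the other aligned settings planned, with median centring, and with the arrays signed by their own labels. Signed as labelled, every member lies between -0.16 and 0.026; with median centring every member except Ccng1 lies above 0.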

How the data were processed

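Two-colour Agilent whole mouse genome arrays compared posterior tissue of Cdx2+/-Cdx4-/- and wildtype embryos. The authors deposited scanner intensities extracted with Agilent Feature Extraction 9.5.3, per the file headers and the submitters' processing notes, with probe positions on mm8, and a table of log10 ratios equal to the scanner's. Here mean spot intensity and median local background were corrected with normexp (offset 50) and loess within each array in limma 3.58.1 (R 4.3.3), with control spots at weight 0. Outlier spots were left out, none of the member spots was saturated, and spots of a probe were averaged on the log2 scale. A probe was tested if well above background on all 4 arrays in at least 1 genotype's channel, and a gene was read by its brightest tested probe. On single arrays, 50.6% to 56.4% of the spots that are not controls were well above background in Cy3 and 58.9% to 64.9% in Cy5. Probes were named through accessions (23374), current symbols (6733) or older symbols (2919) of RefSeq, and 8148 kept the name in the file.

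Each array was signed so that Cdx4 was negative, arrays were averaged within each labelled replicate number, and limma tested the 2 values (1 residual degree of freedom, prior 17.0) with a threshold of 0.05 after Benjamini-Hochberg adjustment. The number of arrays limits the precision. Named genes were all members, Trp53, Mdm4, and of the other pathway genes those called or among the 3 largest of one sign on every array in each direction. The members, the pathway list and the marker lists were chosen with earlier results of these data known. Alternatives covered background correction, normalisation, the filter, the choice of probe, pairing and direction, and, chosen after seeing the data, leaving out arrays. The fit was tested on simulated data.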

Additional observations from a re-analysis of the deposited data

Results flagged for a closer look

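Among the 4 arrays, 1 value of a p53 target gene stood apart from the others. Phlda3 had an aligned log2 ratio of 0.28 on array 1, against 0.165 to 0.172 on the other arrays, a gap of 0.94 of the whole range. Of 21 sets of 4 values looked at, 1 was beyond Dixon's critical share, and chance flags about 1 in 20. All 4 values were positive, and without array 1 the log2 ratio was 0.17.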

How the results depend on the processing

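Ccng1 was lower in 19 of 19 settings with aligned arrays, from -0.57 to -0.17, and was called in 14. The call ended with median centring (-0.17, adjusted p = 0.950 in limma), without the filter on dim probes (-0.45, adjusted p = 0.223), without array 1 or array 3 and with only arrays 2 and 3. Cdkn1a and Phlda3 were higher in 19 of 19, and called in 2, the exchange pairing and the pairing of arrays 1 with 4 and 2 with 3. Bax and Bbc3 were called in 0 of the 19 and changed sign, being higher in 3 and in 2 of them. Mdm2, Zmat3, Sesn2, Trp53inp1 and Perp were each lower in 18 of the 19 and higher with median centring alone. Genes called higher and lower over the whole array, 432 and 578 as reported, were 3215 and 2787 in the exchange pairing, 4303 and 3601 in the other pairing, 10 and 4 without the filter, and 0 and 0 with median centring. Arrays signed by their own labels gave 2 and 22, arrays 1 and 4 alone 223 and 349, and arrays 2 and 3 alone 232 and 249. Lower calls were 935 with plain subtraction and 886 from the scanner's processed signals or the authors' table, both of which called 2 other pathway genes higher. Leaving out 1 array gave 88 to 316 higher and 76 to 471 lower. Members called, 0 higher and 1 lower as reported, were 2 and 5 in the exchange pairing, 2 and 6 in the other pairing, and 0 lower with median centring, without the filter, as labelled and with only arrays 2 and 3. Leaving out 1 array gave 0 to 1 lower. Other pathway genes, 1 higher and 3 lower as reported, were 13 and 16 in the exchange pairing, 17 and 18 in the other, and 0 and 0 without the filter, with median centring and as labelled. Leaving out 1 array gave 1 higher and 0 to 2 lower. The median of the members, -0.12, was 0.21 with median centring, -0.023 as labelled, -0.16 to -0.082 without 1 array, -0.19 without replicate 1 and -0.042 without replicate 2. The cause of these changes was not tested. The pairings change the spread that is measured. Leaving out the filter changes how many probes are tested, and the standard errors changed as well. They were smaller for every member except Ccng1, where the standard error went from 0.105 to 0.109. Single replicates give no test. No paired analysis was possible because the arrays form 1 group, so no replicate number is shared between groups, and the genotypes are already paired within each array in every ratio. With 4 arrays an exact sign-flip test could not go below p = 0.125. The labelled-number fit takes its spread from 2 values a probe, and differences within the reported intervals were not detectable.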
